A study of Mus musculus with 2 samples.

Results

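Condensing spermatids with a higher protamine share made up 248 of the 2552 cells in single-cell RNA libraries from testis tissue of 2 wild-type mice. They are called higher share cells here. Each cell was scored for 6 sets of 4 genes, as the mean over the set of log2(1 + CPM) standardised per gene over all cells. CPM are UMI counts scaled to the same total (1e+06) in each cell, and a UMI (unique molecular identifier) marks 1 captured transcript. In 495 cells the score of Prm1, Prm2, Tnp2 and Klk1b8 was the highest of the 6 sets. Higher share cells were those of the 495 cells in which Prm1 and Prm2 together took at least the median share, 11.1% of the UMIs of the cell. The other 247 of these cells are called lower share cells. A further 226 cells, with the set of Hemgn, 2200002J24Rik, Tmco5b and Pex5l highest, are the late round to elongating spermatids and are called transition cells. Since the measured values of these genes chose the cells, those values are given as a description and without a test.

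Both mice were littermates of the C57Bl/6J Crl strain aged 8 weeks, without a named treatment or deletion, and each gave 1 droplet library with 3' counting. A part of the testis tissue was digested with enzymes and passed through a strainer, which the study used to keep somatic cells few. The mice are numbered by the ending of the cell barcodes. Mouse 1 had 27450497 UMIs in 1237 cells and mouse 2 had 30302332 UMIs in 1315 cells, and the mice shared no cell barcode. Cells of 1 mouse are not replicates, so comparisons rest on 2 animals, and the p-values measure the spread between these animals only.

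Spermatids leave the round stage by elongating and packing their nucleus into the shape of the sperm head. Histones are first replaced by transition proteins, which are encoded by Tnp1 and Tnp2, and these by protamines, which are small arginine-rich proteins that wrap the DNA of sperm. As the chromatin closes transcription stops, and messenger RNA made earlier is stored bound to protein and translated later.

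Higher share cells made up 14.1% of the cells of mouse 1 (174 cells, exact 95% binomial interval 12.2 to 16.1%) and 5.63% of the cells of mouse 2 (74 cells, 4.44 to 7.01%). Among the 495 condensing cells they were 62.8% in mouse 1 (56.8 to 68.5%) and 33.9% in mouse 2 (27.7 to 40.6%). These intervals do not overlap, and they cover counting error only. The threshold was common to both mice, and the median protamine share of the condensing cells was 12.1% in mouse 1 and 9.71% in mouse 2. With a median taken within each mouse, the higher share cells were 139 and 109, of which 213 were among the 248. The cut runs through a continuous range. The 3 cells just below it had 11.1016, 11.1101 and 11.1135% of their UMIs on Prm1 and Prm2, and the 3 just above it had 11.1386, 11.1712 and 11.1855%. Within 5% of the threshold lay 34 higher share and 32 lower share cells. In 160 of the 248 cells the transition set had the second highest score. Doublets were called in 25 of all cells, 0 of them among the higher share cells and 6 among the lower share cells.

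The 12 fixed markers of condensing spermatids, all outside the rule, followed the label. These markers, which include Tnp1, Prm3, Smcp, Gapdhs, Oaz3 and Akap4, summed to 63580 CPM in mouse 1 and 70113 CPM in mouse 2. Their sum was 44766 and 52517 CPM in lower share cells, 26635 and 26427 CPM in transition cells and 2754 and 1787 CPM in the early spermatocyte class (cells with the set of Tex101, Gml, Tex12 and Sycp1 highest). In CPM all 12 were higher in the higher share cells than in each of these 3 classes in both mice. CPM are shares and not numbers per cell. Higher share cells had medians of 10813 and 12139.5 UMIs per cell, against 23359 and 20297 in transition cells. The 9 markers of round spermatids summed to 1606 and 1806 CPM, against 3629 and 4017 CPM in transition cells. Of these sums, 1164 and 1547 CPM came from Pgk2, a glycolytic enzyme that sperm keep. Spaca1, an acrosome membrane protein, was at 21.9 and 23.9 CPM, against 572 and 583 CPM in transition cells. The 6 early spermatocyte markers summed to 28.4 and 24.95 CPM, against 733 and 669 CPM in that class, and the 7 spermatogonial markers to 21.4 and 11.4 CPM. The 8 markers of pachytene or later spermatocytes, which include Sycp1, a gene of the early spermatocyte set, summed to 523 and 517 CPM, against 544 and 426 CPM in lower share cells, 540 and 574 CPM in transition cells and 5920 and 5099 CPM in early spermatocytes. Of these sums, 303 and 363 CPM came from Nme8, a thioredoxin domain protein, which was at 52.6 and 32.7 CPM in early spermatocytes. Markers of somatic cells were low. The 4 haemoglobin genes summed to 13.4 and 14.6 CPM. The 9 Sertoli cell markers summed to 29.4 and 20.8 CPM, with Sox9, Wt1 and Amh at 0 UMIs. The 7 Leydig cell markers summed to 52.7 and 32.2 CPM, with Star at 0 UMIs, and the highest was Insl3 at 23.9 and 9.36 CPM. Of the 6 immune markers only C1qb had UMIs, at 41.3 and 44.7 CPM. The 6 peritubular and endothelial markers summed to 4.48 and 1.04 CPM and the 4 markers of epididymis to 0.

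Protamine transcripts were the most abundant RNA of these cells. Prm1 was at 106125 CPM in mouse 1 and 94896 CPM in mouse 2, and Prm2, the second protamine of the mouse, was at 34599 and 39659 CPM. Tnp2, transition protein 2, was at 38007 and 32133 CPM. Klk1b8, a serine protease of the kallikrein family, was at 1117 and 1070 CPM. Transition cells had 34018 and 27535 CPM of Prm1, and lower share cells had 68679 and 54716 CPM, which is the order the rule sets. Hemgn, a gene of the transition set, was at 52.7 and 36.4 CPM, against 409 and 337 CPM in lower share cells and 922 and 907 CPM in transition cells. Early spermatocytes should lack protamine messages, and they showed 3838 and 1728 CPM of Prm1. Free RNA in droplets is a known source of such counts, and a level up to these values is read as background here. It is an upper value, since a few cells carried part of it. Prm1 and Prm2 together had medians of 2465 and 2051 CPM per early spermatocyte, while the highest cell of each mouse had 93002 and 93767 CPM, and 4 and 2 of these cells were called doublets. The higher share cells were above this background in both mice. For Prm1 and Prm2 together the rule sets this, since it admits only cells of at least the median share. It is therefore a description and not a separate finding.

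Prm1, Prm2, Prm3 and Tnp2 lie beside each other on the minus strand of chr16:10787936-10805839 in GRCm38, a span of 17904 bases. Prm3, whose gene sits between Prm2 and Tnp2 and encodes an acidic protein, was outside the rule and reached 5399 and 4967 CPM, against 2649 and 2160 CPM in transition cells. The neighbours outside the cluster did not share this level. Socs1, a suppressor of cytokine signalling, had 0 UMIs in the higher share cells of both mice, which allows up to 1.49 CPM in mouse 1 and 3.12 CPM in mouse 2 (3 counts of the total). Clec16a was at 15.9 and 16.6 CPM and Rmi2 at 1.99 and 2.08 CPM. Prm1, Prm2 and Tnp2 belong to the rule, and Prm3 and the chromosome 1 gene Tnp1 are the other members of the list of protamines and transition proteins. The 120 bases before their start sites are shown as a description, from RefSeq sequence of GRCm38. The windows end at the RefSeq starts, which for Prm1 and Prm2 lie inside the longer gene models that give the span above. On the minus strand they are chr16:10796824-10796943 for Prm1, chr16:10792106-10792225 for Prm2, chr16:10790915-10791034 for Prm3, chr16:10788656-10788775 for Tnp2 and chr1:73015900-73016019 for Tnp1. Capitals mark a TATAA on either strand (TTATA where it lies on the other strand) and an 8-base stretch within 1 base of TGACGTCA, the palindromic element that factors of the CREB and CREM family bind.
Prm1: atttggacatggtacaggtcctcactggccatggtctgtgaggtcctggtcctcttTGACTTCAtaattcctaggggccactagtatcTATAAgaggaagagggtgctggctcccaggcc
Prm2: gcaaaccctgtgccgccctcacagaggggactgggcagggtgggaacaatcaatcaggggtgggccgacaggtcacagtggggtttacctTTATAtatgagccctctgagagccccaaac
Prm3: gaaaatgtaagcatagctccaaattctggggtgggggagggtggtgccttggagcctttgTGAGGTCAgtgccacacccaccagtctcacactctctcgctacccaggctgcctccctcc
Tnp2: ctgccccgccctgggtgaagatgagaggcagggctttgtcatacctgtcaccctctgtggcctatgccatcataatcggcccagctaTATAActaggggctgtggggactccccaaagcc
Tnp1: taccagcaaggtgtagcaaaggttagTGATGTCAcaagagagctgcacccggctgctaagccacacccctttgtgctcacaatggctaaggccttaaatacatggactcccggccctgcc
TATAA was found in 3 of the 5 windows (Prm1, Prm2 and Tnp2), at 32, 30 and 33 bases before the start, and 11.8% of 32851 gene windows of this length hold it. No window held TGACGTCA itself, which 1.24% of all windows hold. A stretch within 1 base of it was found in 3 windows, as TGACTTCA in Prm1, TGAGGTCA in Prm3 and TGATGTCA in Tnp1, and 7.24% of all windows hold such a stretch. The 2 motifs do not overlap in these windows. A match is a description of the letters and not a measurement of binding.

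Counted per cell, Prm1 and Prm2 transcripts were more numerous and the sum of all other transcripts was smaller. Prm1 and Prm2 UMIs had medians of 1537 per cell (mouse 1) and 1582 (mouse 2) in higher share cells, of 1269 and 1083.5 in lower share cells and of 936 and 820 in transition cells. All other UMIs had medians of 9286.5 and 10557 per cell, against 11835 and 11465.5 in lower share cells and 22394 and 19288 in transition cells. Both terms of the share thus differed between the classes. Single genes within that sum could go the other way, as Tnp1 did with medians of 373 and 396 UMIs per cell against 293 and 265 in lower share cells and 231 and 220 in transition cells. The ratio of the median in higher share cells to that in lower share cells was 1.34 ± 0.176 (SD, n = 2 mice) for protamine UMIs and 0.853 ± 0.0962 for other UMIs. Against transition cells the ratios were 1.79 ± 0.203 and 0.481 ± 0.0938. Both mice lay on the same side of 1 in each of these ratios, which follow from the rule in part and carry no test.

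The remaining transcripts were of fewer kinds. The median number of genes with a UMI was 2178 and 2182 per cell, against 2798 and 2498.5 in lower share cells and 4259 and 4128 in transition cells. To remove depth and the rule's genes, each cell was thinned to 5000 UMIs outside the 24 score genes, which every cell of the 3 classes had. At this depth the medians were 1593 and 1496.5 genes in higher share cells, 1764 and 1699 in lower share cells and 2160 and 2150 in transition cells. The ratio to lower share cells was 0.892 ± 0.0157 (SD, n = 2 mice) and the ratio to transition cells 0.717 ± 0.0293. Among UMIs on annotated genes outside the score genes, 198 and 175 genes held 50% in higher share cells, 299 and 263 in lower share cells and 474 and 474 in transition cells. The share of UMIs on the Y chromosome was 0.0125 and 0.00822%, against 0.0136 and 0.00759% in lower share cells and 0.0384 and 0.0382% in transition cells. The share on the X chromosome was 2.11 and 1.98%, against 2.04 and 2.01% in lower share cells and 1.86 and 1.91% in transition cells.

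**Figure D1:**
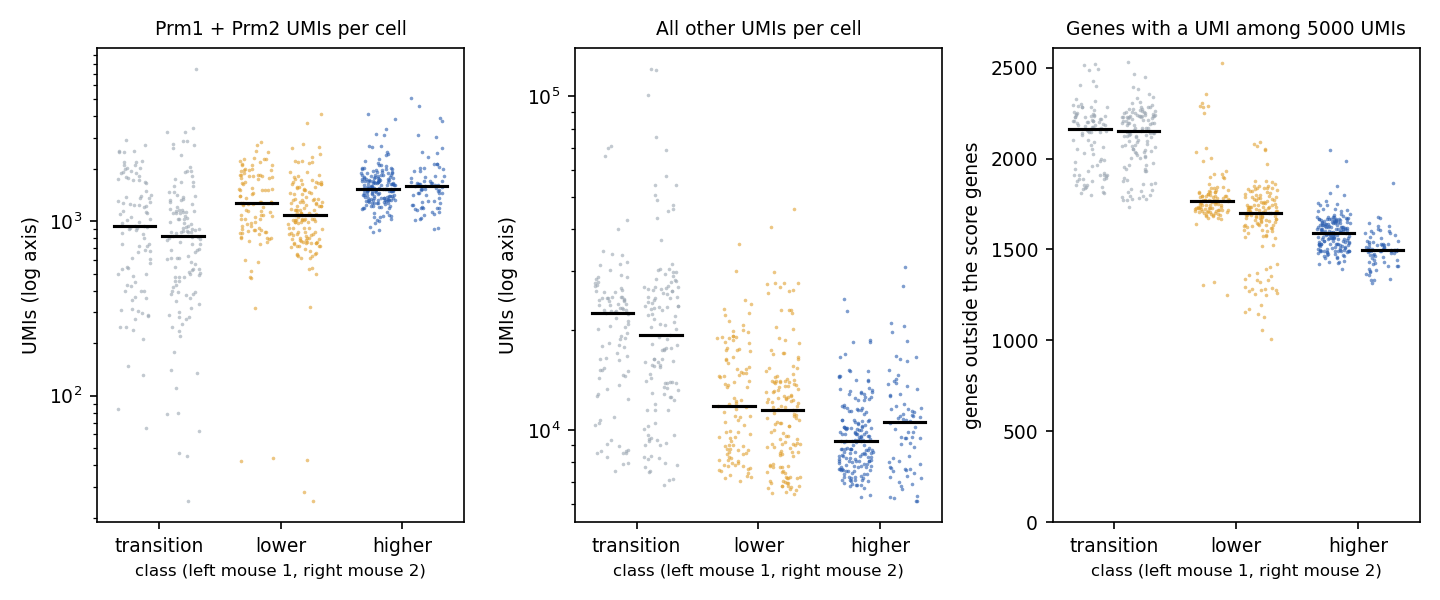
Each point is 1 cell and each black line a median per mouse, for Prm1 and Prm2 UMIs per cell (log axis), all other UMIs per cell (log axis) and genes with a UMI among 5000 UMIs outside the score genes, in transition, lower share and higher share cells. Protamine UMIs are highest in the higher share cells (medians 1537 and 1582), while their other UMIs (9286.5 and 10557) and gene numbers (1593 and 1496.5) are lowest.

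Transition protein messages split the higher share cells. For each cell the UMIs of Tnp1 and Tnp2 were divided by those of Prm1 and Prm2. Since 3' counting gives 1 UMI per captured transcript, this ratio does not scale with transcript length. The bands used here were set after the values had been seen, and Tnp2 and the protamines belong to the rule, so they are a description. In 191 of the 248 cells the ratio was at least 0.4, with medians of 0.568 in mouse 1 and 0.635 in mouse 2, close to the 0.555 and 0.606 of transition cells. In 35 cells it lay from 0.1 to 0.4, and in 22 cells below 0.1, with medians of 0.0452 and 0.0513 in the lowest band. Cells of the lowest band were 7 of 174 in mouse 1 (4.02%, exact 95% binomial interval 1.63 to 8.11%) and 15 of 74 in mouse 2 (20.3%, 11.8 to 31.2%). These intervals cover counting error within 1 library each, and the difference between the mice was not tested. The middle band held 13.8% in mouse 1 and 14.9% in mouse 2.

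The 3 bands also differed in their protamine share. It had medians of 13.2 and 12.9% at a ratio of at least 0.4, of 18.1 and 15.8% in the middle band, and of 15.8 and 13.7% in the lowest band. The highest shares therefore lay in the middle band, at up to 19.3% in mouse 1 and 16.7% in mouse 2. Total UMIs per cell had medians of 11084 and 12872.5 at a ratio of at least 0.4, and of 8887 and 9285 below 0.1.

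**Figure D2:**
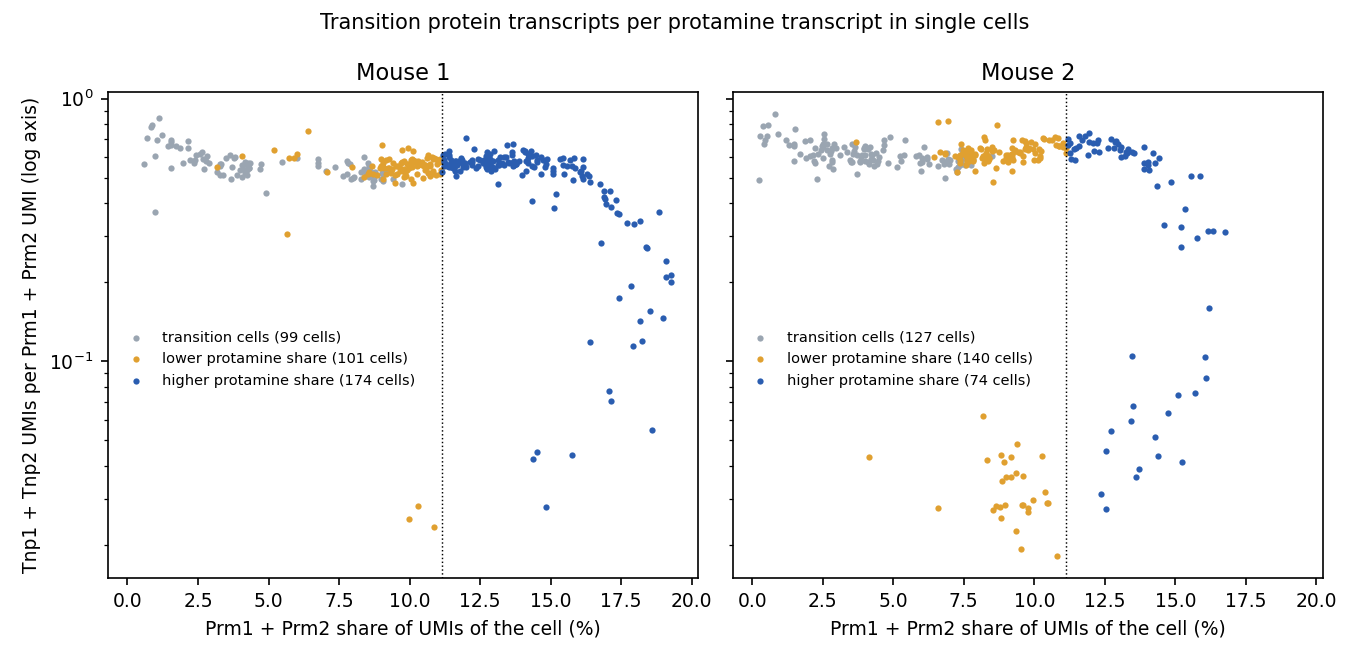
Each point is 1 cell, placed by the share of its UMIs on Prm1 and Prm2 (x axis, %) and by its Tnp1 and Tnp2 UMIs per Prm1 and Prm2 UMI (y axis, log scale), for transition, lower share and higher share cells of each mouse, without the 6 lower share cells of another kind. The dotted line is the threshold of 11.1%, and below a ratio of 0.1 lie 22 higher share cells to its right and 33 lower share cells to its left.

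Cells with few transition protein transcripts were also found on the other side of the threshold, where they differed in the kind of protamine. Of the lower share cells 33 had a ratio below 0.1, 3 in mouse 1 and 30 in mouse 2. In all 33 of them Prm2 had more UMIs than Prm1, which was the case in 0 of the 248 higher share cells and in 0 of the 226 transition cells. It was also the case in 0 of the other 208 lower share cells, counted without the 6 cells of another kind described below. The median number of Prm1 UMIs per Prm2 UMI was 0.360 and 0.302 in these 33 cells. In higher share cells it was 3.12 and 2.61 at a transition protein ratio of at least 0.4, 3.01 and 2.61 in the middle band and 2.26 and 1.74 in the lowest band. Median UMIs per cell in the 33 cells were 8610 and 8547. A threshold on the summed protamine share thus leaves cells of the lowest transition protein ratio in both classes.

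Several genes, chosen after their values had been seen, differed along the same bands. Tnp1, which was outside the rule, fell from 34611 and 39063 CPM at a ratio of at least 0.4 to 20989 and 18070 CPM in the middle band and 2297 and 1863 CPM in the lowest band, as the bands built on it require. Hmgb4, a testis protein with high-mobility-group boxes, is not in the ratio and was at 9514 and 9286 CPM, then 3167 and 2443 CPM, then 734 and 649 CPM. Its level below 0.1 was 0.0771 and 0.0699 times that at 0.4 or more. Fam71f1 (0.0552 and 0.0574 times), the testis poly(A) polymerase Papolb (0.0860 and 0.0962 times) and Fhl5, a coactivator of CREM (0.146 and 0.169 times), were low in the same cells. These ratios rest on 4 and 9 UMIs of Fam71f1, 3 and 7 of Papolb and 5 and 17 of Fhl5 in the lowest band.

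Smcp and Oaz3 went the other way. Smcp, a protein of the mitochondrial capsule, was at 7225 and 9029 CPM at a ratio of at least 0.4, at 9943 and 11241 CPM in the middle band and at 11611 and 15217 CPM in the lowest band. Oaz3, the antizyme of spermatids, which limits polyamines, was at 3467 and 4313 CPM, then 5199 and 6871 CPM, then 7512 and 9411 CPM. Gapdhs, the sperm form of a glycolytic enzyme, was at 2251 and 2918 CPM, then 2962 and 3911 CPM, then 3956 and 4708 CPM. In the 33 lower share cells of lowest ratio these 3 genes were higher still, at 19235 and 21759 CPM of Smcp, 11556 and 14109 CPM of Oaz3 and 5183 and 7643 CPM of Gapdhs, while Hmgb4 was at 154 and 428 CPM. The order was the same in both mice for each of these genes. Prm3 was also higher from band to band in both mice, at 5153 and 4580 CPM, 6579 and 5706 CPM, and 7401 and 5884 CPM in the 3 bands. All these levels are shares of the UMIs, and the total was smaller in the lowest band. Its medians per cell were 8887 and 9285 UMIs there, against 11084 and 12872.5 UMIs at a ratio of at least 0.4. A higher share is therefore not by itself a higher number per cell.

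Cst13, Cdyl and Malat1 were lower in higher share cells of high ratio than in lower share cells of high ratio. Cst13, a cystatin, was at 944 and 813 CPM in lower share cells with a ratio of at least 0.4, and at 70.6 and 53.1 CPM in the higher share cells with a ratio of at least 0.4. Its level in the other bands of the higher share cells lay between 31.9 and 72.1 CPM. Cdyl, a chromodomain protein that acts on chromatin, was at 1170 and 1113 CPM in the former and at 236 and 62.2 CPM in the latter. Malat1, a long noncoding RNA kept in the nucleus, was at 1826 and 1452 CPM in transition cells, at 190 and 77.0 CPM in the lower share cells of high ratio and at 27.1 and 27.3 CPM in the higher share cells of high ratio. Among higher share cells, this is the band where Tnp1 and Hmgb4 were at their highest.

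For Cst13, Cdyl and Tmigd3 the mice differed in the protamine share at which the level dropped. The condensing cells were ordered by protamine share into 4 ranges of about equal cell number over both mice, with the threshold between ranges 2 and 3, and cells of a ratio below 0.4 and cells of another kind were then left out. Levels here are CPM of the UMIs on annotated genes outside the score genes. In mouse 1 Cst13 was at 1283 CPM in range 1, 1013 CPM in range 2, 98.2 CPM in range 3 and 70.9 CPM in range 4. In mouse 2 it was at 1199 CPM in range 1 but already at 144 CPM in range 2, then at 53.9 and 93.4 CPM. The step thus lay at the threshold in mouse 1 and 1 range lower in mouse 2. Tmigd3 went from 833 CPM to 159 CPM between ranges 2 and 3 in mouse 1, and from 1019 CPM to 193 CPM between ranges 1 and 2 in mouse 2. Cdyl had 1342, 1362, 451 and 65.7 CPM in mouse 1 and 1536, 511, 79.6 and 66.7 CPM in mouse 2. The ranges held 28, 69, 81 and 62 cells of mouse 1 and 74, 36, 35 and 13 cells of mouse 2. Malat1 did not follow this, with 550, 77.9, 33.6 and 32.9 CPM in mouse 1 and 100.5, 52.5, 35.9 and 26.7 CPM in mouse 2, with the largest step between ranges 1 and 2 in both. In mouse 2 the level of Cst13, Cdyl and Tmigd3 in these lower share cells therefore came mostly from range 1, and the difference between the mice was not tested.

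**Figure D3:**
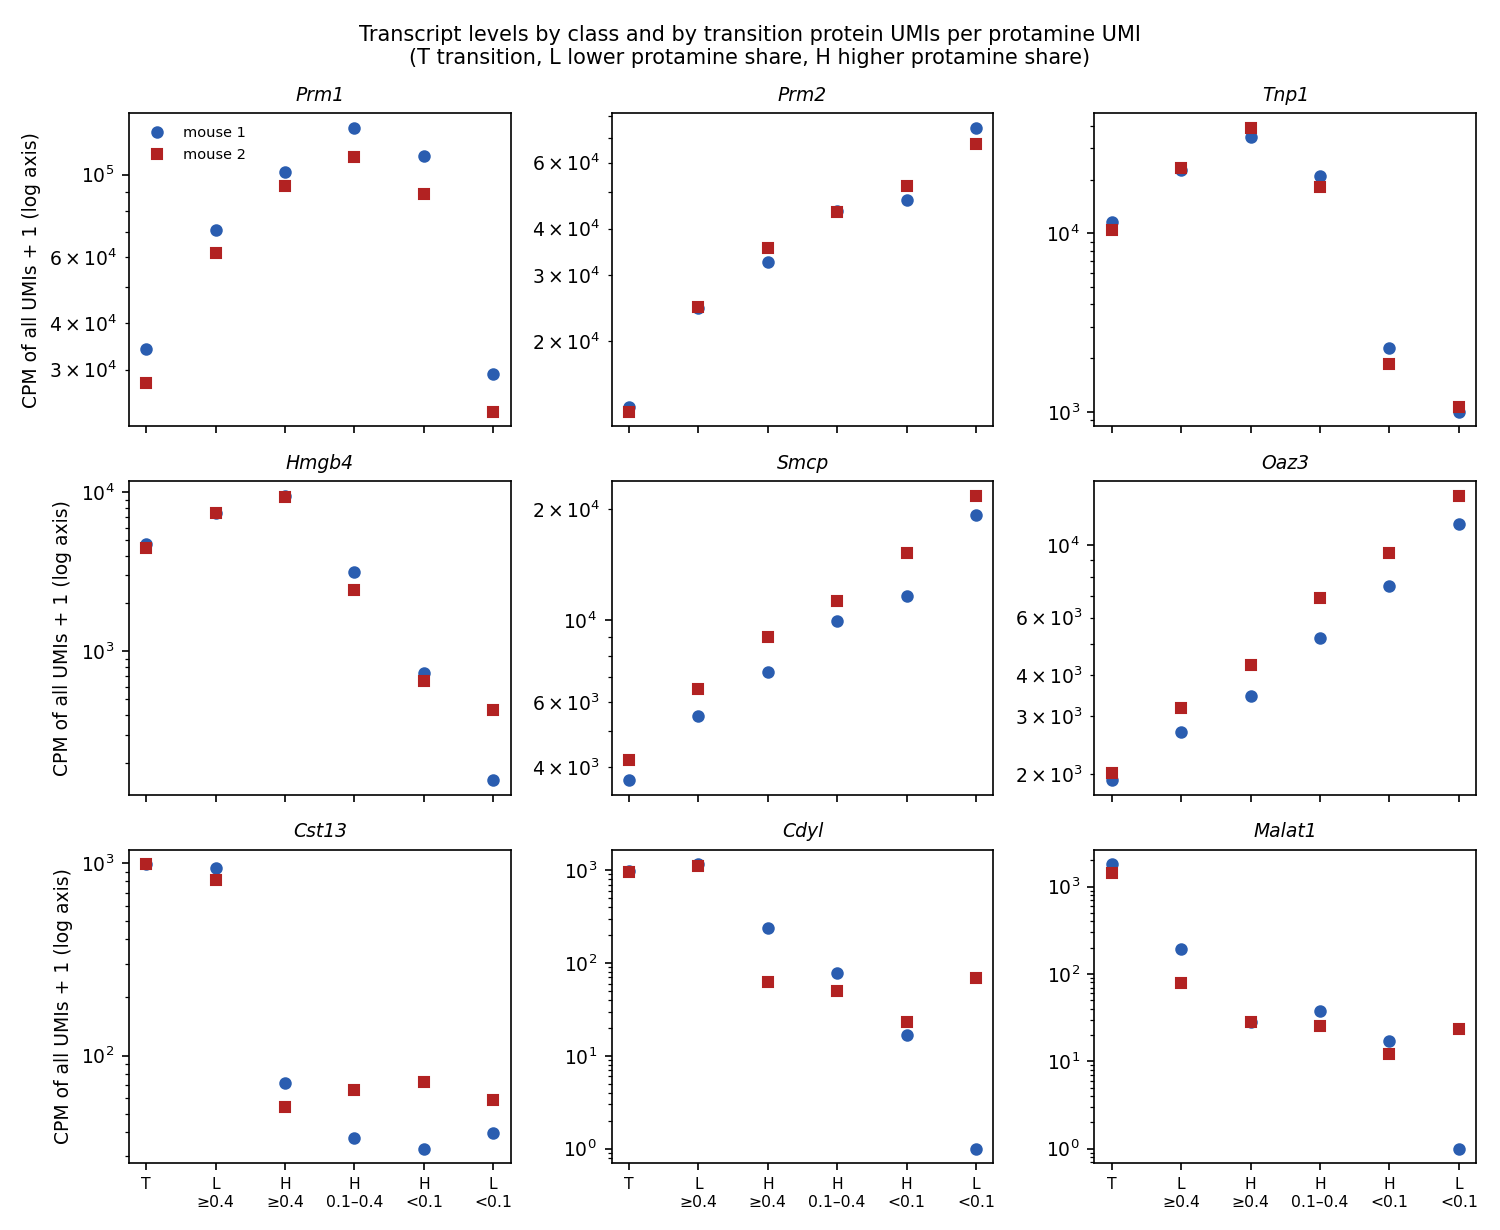
CPM of all UMIs plus 1 (log axis) of 9 genes in mouse 1 (circles) and mouse 2 (squares), in transition cells (T), in lower share cells (L) and in higher share cells (H), the last 2 divided by Tnp1 and Tnp2 UMIs per Prm1 and Prm2 UMI. Tnp1 and Hmgb4 are highest in the higher share cells with a ratio of at least 0.4 (34611 and 39063, 9514 and 9286 CPM), Smcp and Oaz3 rise across the bands, and Cst13, Cdyl and Malat1 are lower in each higher share band than in lower share cells of a ratio of at least 0.4.

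For the test against lower share cells, UMIs were summed per mouse and class without the 24 score genes and the repeat sequences. Levels in the following are CPM of the UMIs on annotated genes outside the score genes. Of 13115 genes tested, 1286 (9.81%) passed edgeR's quasi-likelihood test at an adjusted p of 0.05, 670 (5.11%) higher and 616 (4.7%) lower in the higher share cells. The same cells gave the classes and the gene counts. When the classes were chosen on a random part of each cell's UMIs and the genes counted on the remainder, 11163 genes were tested and 827 passed. The split between directions differed between settings. With library size alone the median log2 fold change of all genes was -0.39, against -0.05 with the TMM scaling used, and 1307 genes were called (9.97%), 103 higher (0.785%) and 1204 lower (9.18%). Higher calls were thus 7.88% of the calls, against 52.1% with TMM and 62.3% with the size factors of DESeq2. A fit of only the classes compared tested 6272 genes and called 396, 68 higher and 328 lower, so that 17.2% of its calls were higher. Fold changes below are therefore relative to the TMM scaling of each fit. The median gene was at -0.05 in the main fit and at -0.20 without mouse 1, so folds of these fits have different baselines. With the mouse as a block, 1765 genes passed, 1011 higher and 754 lower. Without mouse 1, which holds most higher share cells, 99 genes were called higher and 488 lower, and without mouse 2 these were 414 and 324.

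Lower share cells held 6 cells of another kind, which bears on this comparison. In 5 of them Prm1 and Prm2 reached at most 4404 CPM, while the next lower share cell had 31760 CPM. The remaining cell was set apart only for its haemoglobin UMIs. Its Prm1 and Prm2 were at 31760 CPM or more, so it also held protamine transcripts, and the name is only a label for it. Lower share cells had 287 and 616 CPM of the 7 Leydig cell markers, against 52.7 and 32.2 CPM in higher share cells. Without these 6 cells 947 genes passed (7.24%), 361 higher (2.76%) and 586 lower (4.48%), of which 358 and 518 were among the main calls. Without the condensing cells of a ratio below 0.4 as well, 1018 genes passed (7.78%), 447 higher (3.42%) and 571 lower (4.37%), of which 406 and 491 were among the main calls.

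Among the 12 genes with the largest rise, 1700008P02Rik led, at 455 and 549 CPM against 234 and 254 CPM, a log2 fold change of 1.39 ± 0.17 (SE; edgeR adjusted p = 1.11e-05). Its level in transition cells was 97.7 and 119 CPM. Svip, an inhibitor of the ATPase VCP at the endoplasmic reticulum, was at 1880 and 1843 CPM against 1134 and 976 CPM (1.19 ± 0.18). Klk1b9, a kallikrein, was at 311 and 334 CPM against 200 and 167 CPM (1.18 ± 0.16). In these genes both mice of the higher share cells lay above both mice of the lower share cells. Dph3, which acts in diphthamide synthesis, was at 302 and 373 CPM against 183 and 197 CPM, and Ppp4c, the catalytic subunit of protein phosphatase 4, at 83.4 and 98.6 CPM against 56.8 and 48.2 CPM. Cyp2a12, a cytochrome P450, was at 323 and 292 CPM against 199 and 159 CPM. The others were Gm43786, Rsf1os1, 1700024P04Rik and Gm14773, with log2 fold changes of 1.13 to 1.17, and 2 that did not hold in every setting. Klk1 (1.34, edgeR adjusted p = 0.0072) and the pseudogene Eif1-ps1 (1.29, adjusted p = 0.0075) had edgeR adjusted p of 0.069 and 0.071 with library size alone, of 0.306 and 0.331 without mouse 1 and of 0.056 and 0.085 without mouse 2. Klk1 also missed the threshold in the fit of only the classes compared (edgeR adjusted p = 0.060). Klk1 and Eif1-ps1 passed the minimum of 200 UMIs mostly through the higher share cells, so nothing is read from their order. Klk1, Klk1b9 and other kallikreins are near-identical copies, as are Eif1-ps1 and its parent gene Eif1, so reads could be split between them.

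The genes with the largest falls passed the minimum of 200 UMIs mostly through the lower share cells, so nothing is read from their order or from their size beside that of the rises. Cst13 had 131 and 56 UMIs in higher share cells and was at 80.4 and 70.8 CPM against 1036 and 777 CPM, a log2 fold change of -3.20 ± 0.19 (edgeR adjusted p = 1.76e-10), and it was found in 51.7 and 54.1% of higher share cells against 86.4 and 77.1% of lower share cells. Faiml was at 9.82 and 11.4 CPM against 166 and 141 CPM (-3.52, from 16 and 9 UMIs), and Fam71b at 10.4 and 16.4 CPM against 147 and 205 CPM (-3.47, from 17 and 13 UMIs). Cntn1, the cell adhesion protein contactin 1, was at 17.8 and 1.26 CPM against 185 and 129 CPM, and since 1 UMI underlies its value in mouse 2 (29 in mouse 1) no fold is given. Ccdc185 was at 93.3 and 27.8 CPM against 612 and 504 CPM (-2.72, from 152 and 22 UMIs) and Tmigd3 at 113 and 63.2 CPM against 854 and 678 CPM (-2.70). Without mouse 1 the log2 fold change of Ccdc185 was -3.998. All 6 genes of this paragraph passed in every setting run with both mice. They were picked under that minimum, so these settings are no separate support for them. On CPM without TMM scaling, 5 of them were higher in transition cells than in lower share cells in both mice, and Ccdc185 was higher in mouse 2. The TMM factors were 0.885 and 0.872 in transition cells and 0.787 and 0.684 in lower share cells. With these factors Cst13, Cntn1 and Tmigd3 were lower in the transition cells of mouse 1, and this comparison was not tested. Transition cells had 1070 and 1062 CPM of Cst13 and 201 and 205 CPM of Cntn1. In mouse 2 the lower share values of these genes came mostly from range 1 of the protamine share. Faiml was at 222 CPM there and at 13.8 CPM in range 2 (5 UMIs), and Fam71b at 318 and 33.1 CPM (12 UMIs), whereas mouse 1 had 145 and 131 CPM of these genes in range 2.

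Among the falls named by the main test was that of Malat1 (-5.67), from 2021 and 2179 CPM in lower share cells to 34.4 and 29.1 CPM (56 and 23 UMIs). Of its UMIs in lower share cells, 2318 of 2633 in mouse 1 and 3711 of 3846 in mouse 2 came from the 6 cells of another kind, and without them its log2 fold change was -1.98 (edgeR adjusted p = 0.000306). Lcn2, Fabp3, Ptgds, Cyp17a1, an enzyme of androgen synthesis, and Gstm1 completed the 12 falls named, all of genes with at least 200 UMIs over both classes. Without the 6 cells none of these 5 passed, and Lcn2, Fabp3, Cyp17a1 and Gstm1 had log2 fold changes of 0.33, 0.50, 0.63 and 0.85 in the other direction.

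Genes of known spermatid structures were grouped in lists, described by their counts beside the background of 5.11% of genes higher and 4.7% lower. The higher calls depended on the TMM scaling. With library size alone 0 genes were called higher in the lists of histone variants, mitochondrial sheath, fibrous sheath, sperm surface and serine kinases, and 1 each in those of outer dense fibres, axoneme, manchette, RNA-binding proteins, ubiquitin, thioredoxin and kallikreins. In the order named, the genes lower with that scaling were 3, 6, 5, 8 and 2 in the former lists and 4, 5, 6, 5, 8, 5 and 4 in the latter. The acrosome list then had 12 genes lower, the transcription list 7, the calcium channel list 3 and the polyamine list 1, with 0 higher in each. Counts without the 6 cells of another kind are given beside the main ones, and of the genes named from the lists H1fnt, Odf2 and Tssk3 did not pass without these cells (edgeR adjusted p = 0.113, 0.073 and 0.150). Both members of the protamine and transition protein list outside the rule were higher. Tnp1 was at 39364 and 35789 CPM against 25028 and 22055 CPM (log2 fold change 1.04 ± 0.25, edgeR adjusted p = 0.0079) and Prm3 at 6659 and 6041 CPM against 4488 and 3988 CPM (0.95 ± 0.22, adjusted p = 0.0081). With library size alone, or without either mouse, neither passed. Of 28 spermatid histone variants and chromatin remodelers 4 were higher and 2 lower, and without the 6 cells 3 and 2. H2al2a, a histone H2A variant of condensing spermatids, was at 2165 and 2327 CPM against 1502 and 1568 CPM (0.91), and H1fnt, a linker histone of spermatids, had a log2 fold change of 0.66. Hils1, another spermatid linker histone, was lower at 1547 and 817 CPM against 3671 and 3404 CPM (-1.22), and Cdyl at 258 and 64.5 CPM against 1282 and 1061 CPM (-2.43). Without mouse 1 the log2 fold changes of Hils1 and Cdyl were -1.88 and -3.86, and H2al2a and H1fnt did not pass (edgeR adjusted p = 0.104 and 0.283), nor did H1fnt without mouse 2 (adjusted p = 0.112). The median log2 fold change of the list was 0.11, beside -0.05 over all genes.

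Lists of the sperm tail had calls in both directions. Of 22 genes of the mitochondrial sheath 4 were higher, among them Gpx4 (0.89), which forms part of the capsule, and 4 lower, among them Ldhc (-0.90), the lactate dehydrogenase of germ cells. The counts were 2 and 4 without the 6 cells. Of 12 outer dense fibre genes 4 were higher, among them Odf2 (0.81), and 2 lower, of which Odf3 was at 79.8 and 41.7 CPM against 467 and 396 CPM (-2.39), and without the 6 cells 2 were higher and 2 lower. Of 24 genes of the fibrous sheath and its glycolytic enzymes 7 were higher and 3 lower. The anchoring protein Akap4 was at 2539 and 2904 CPM against 1788 and 2157 CPM (0.81), while Akap3 was at 369 and 113 CPM against 1245 and 1096 CPM (-1.88) and Ropn1l, which binds such anchors, had a log2 fold change of -1.58. The 2 anchoring proteins of the sheath thus stood on opposite sides. Without the 6 cells of another kind this list had 2 genes higher and 4 lower. Of 33 axoneme genes 3 were higher and 2 lower in both fits. Of 33 genes of the manchette and head shaping 7 were higher, among them Dnajb3, a heat shock protein family member at 5146 and 5825 CPM against 3570 and 3488 CPM, and 2 lower, and without the 6 cells 3 were higher and 3 lower. Without mouse 1 Gpx4, Odf2 and Akap4 did not pass (edgeR adjusted p = 0.062, 0.135 and 0.091), and Odf3 and Akap3 had log2 fold changes of -3.06 and -3.10. Ldhc did not pass without mouse 2 (edgeR adjusted p = 0.122).

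Genes of the acrosome and the sperm surface had falls. Of 33 acrosome genes 0 were higher and 6 lower, among them Hyal5 (-1.58), a hyaluronidase, Calr3 (-1.53), a chaperone of germ cells, and Spaca7 (-1.48). Their median log2 fold change was -0.16, and without the 6 cells 0 were higher and 8 lower. With the mouse as a block 2 acrosome genes were higher and 8 lower. Of 27 genes of the sperm surface and fusion 4 were higher and 7 lower, and without the 6 cells of another kind 0 were higher and 7 lower. Adam6a and Adam6b, a pair of near-identical metalloproteinase genes, were at 11.7 and 6.32 CPM against 89.8 and 61.2 CPM (-2.57) and at 8.59 and 6.32 CPM against 77.5 and 52.7 CPM (-2.68). Prss37, a protease-like protein needed for sperm migration, had a log2 fold change of -2.02. Of 18 genes of the calcium channel and ion transport 0 were higher and 2 lower, Catsper4 (-1.65) and Tex40 (-0.69), which was so without the 6 cells as well. Leaving out mouse 1 gave log2 fold changes of -2.41 for Spaca7 and -2.41 for Catsper4, and Tex40 did not pass without mouse 2 (edgeR adjusted p = 0.051).

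Calls in the lists for handling of stored RNA and for transcription are set beside the same background of 5.11% higher and 4.7% lower. Of 44 RNA-binding and translational control genes 4 were higher, including Paip2 (0.90), a regulator of poly(A)-binding protein, and 2 were lower. The lower genes were the Y-box proteins Ybx1 (-2.70 ± 0.81), at 87.1 and 150 CPM against 438 and 1415 CPM, and Ybx3 (-1.30). Without the 6 cells of another kind 2 were higher and 2 lower. The values of Ybx1 differed more between the mice than those of most genes named here. Of 37 genes of the transcription machinery and the CREM pathway 0 were higher and 3 lower, which were Gtf2a1l (-1.74), a germ cell subunit of TFIIA, Fhl5 (-0.83) and Sox30, at 14.1 and 8.85 CPM against 34.5 and 28.3 CPM, and the counts were 0 and 3 without the 6 cells as well. Of 8 testis serine kinase genes Tssk3 was higher (0.67) and Tssk1 lower, at 373 and 130 CPM against 1204 and 1102 CPM (-1.80), as was Tssk4 (-0.80), and without the 6 cells 0 were higher and 2 lower. Of 41 genes of ubiquitin, proteasome and cytoplasm removal 7 were higher, among them Gabarapl1 (0.96), an autophagy protein, and 4 lower, among them Trim36 (-1.39), whereas without the 6 cells 3 were higher and 5 lower. Of 9 polyamine and antizyme genes 0 passed in the main fit or without the 6 cells. With the mouse as a block 2 of them were higher, as were 2 without the condensing cells of a ratio below 0.4. Of 18 thioredoxin system genes 3 were higher, among them Nme8 (1.03), and 2 lower, and without the 6 cells 2 and 1. Of 11 testis kallikreins 4 were higher and 3 lower, and the 3 were not tested without the 6 cells of another kind, since too few UMIs were left. Leaving out mouse 1 gave log2 fold changes of -2.90 for Tssk1, -2.04 for Ybx3 and -2.31 for Trim36. Ybx1, Sox30 and Tssk4 did not pass without mouse 1 (edgeR adjusted p = 0.192, 0.073 and 0.419) or without mouse 2 (0.447, 0.144 and 0.103). Tssk3 did not pass without mouse 1 (edgeR adjusted p = 0.303) and Fhl5 without mouse 2 (0.093). No test of a list as a whole was made.

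Cytosolic ribosomal proteins had the most calls among lists of over 20 genes. Of 83 tested, 40 were higher and 11 lower, with a median log2 fold change of 0.56, but with library size alone 8 were higher and 16 lower. Without the 6 cells of another kind 26 were higher and 7 lower. Rps15a was at 724 and 775 CPM against 479 and 409 CPM (1.12, edgeR adjusted p = 0.000134), and Rpl37 at 1626 and 1534 CPM against 1144 and 908 CPM (0.99). Rpl22l1 was at 66.9 and 39.2 CPM against 348 and 226 CPM, and Rps3a1 at 29.4 and 16.4 CPM against 127 and 109 CPM (-1.91, and -2.55 without mouse 1). Since many ribosomal protein genes have processed pseudogenes, reads can be split between copies. Of 14 mitochondrially encoded genes 5 were lower, and without the 6 cells of another kind 0 passed.

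Against transition cells, 5035 of 13115 genes passed (38.4%), 2081 higher (15.9%) and 2954 lower (22.5%) in the higher share cells. With library size alone 5613 passed (42.8%), 1033 higher (7.88%) and 4580 lower (34.9%), and the median log2 fold change of all genes was -0.76 against -0.16. Without the condensing cells of a ratio below 0.4, 4768 passed (36.5%), 1877 higher (14.4%) and 2891 lower (22.1%). The comparison shares the higher share cells with that against lower share cells, so both are given side by side and not as independent results. Among the 8 largest rises, 1110008P14Rik was at 57.7 and 74.6 CPM (94 and 59 UMIs) against 23 and 27 UMIs (3.31 ± 0.31, edgeR adjusted p = 1.29e-08) and Tmod4, a tropomodulin, at 58.3 and 70.8 CPM against 13.3 and 8.61 CPM (3.18). Apoe, the lipid carrier, was at 121 and 116 CPM against 21.9 and 33.8 CPM (2.69), and Zfp706 at 499 and 591 CPM against 139 and 148 CPM (2.54). Cby3 was at 394 and 352 CPM against 93.9 and 93.7 CPM (2.61). The others were 1700008P02Rik (2.82), Cyp2a12 (2.69) and Klk1b3, at 63.8 and 54.4 CPM against 15.3 and 15.5 CPM. Of these, 1700008P02Rik also led the comparison with lower share cells. Apoe was at 83.7 and 155 CPM in lower share cells, and 1110008P14Rik at 45.3 and 83.9 CPM. Both genes were thus higher in lower share cells than in higher share cells in mouse 2. The other genes named among these rises had lower levels in lower share cells than in higher share cells in both mice.

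The 8 falls that rank first had at most 4 UMIs each in the higher share cells of both mice together. They passed the minimum of 200 UMIs through the transition cells, so no fold is given and nothing is read from their order. Kbtbd6 had 1 and 0 UMIs, against 112 and 190 UMIs (53.4 and 65.5 CPM) in transition cells. Nim1k, a protein kinase, had 2 and 1 UMIs against 190 and 272, and 4921509C19Rik had 2 and 2 UMIs against 271 and 346. The others were 1700022F17Rik, Gm5373, 9530080O11Rik, Speer5-ps1 and Rbm18, which had 0 to 2 UMIs per mouse. In lower share cells Kbtbd6 still had 8 and 14 UMIs and 4921509C19Rik had 18 and 20.

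In 9 of the 19 lists more genes were lower than higher than in transition cells, beside a background of 22.5% lower and 15.9% higher over all genes. Of 33 acrosome genes 20 were lower and 6 higher, with a median log2 fold change of -1.51, and Spaca1 was at 27.0 and 29.1 CPM against 621 and 628 CPM (-3.87, edgeR adjusted p = 2.00e-11). Acrv1 was at 17.2 and 30.4 CPM against 352 and 402 CPM (-3.48), while Crisp2, a protein of the acrosome and tail, was at 2969 and 4024 CPM against 1705 and 1990 CPM (1.54). Of 27 surface and fusion genes 15 were lower and 6 higher, and Izumo1, the sperm protein that binds the egg, was at 21.5 and 25.3 CPM against 230 and 249 CPM (-2.77). Of 33 axoneme genes 17 were lower and 4 higher, and Tekt2, a tektin of the tail, was at 58.9 and 46.8 CPM against 515 and 528 CPM (-2.66). Of 18 genes of the calcium channel and ion transport 9 were lower and 1 higher. Of 37 genes of the transcription machinery and CREM pathway 15 were lower and 1 higher. Crem itself was at 68.7 and 92.3 CPM against 372 and 391 CPM (-1.66), and Gtf2a2, a subunit of TFIIA, at 46.6 and 37.9 CPM against 601 and 600 CPM (-3.18). In 4 of the 9 lists the counts of the directions lay close together, and since falls also outnumber rises over all genes nothing is read from their order. These were 8 lower and 7 higher of 28 histone variants and remodelers, 8 and 6 of 22 mitochondrial sheath genes, 11 and 9 of 33 manchette genes and 12 and 9 of 44 RNA-binding genes. The histone H3.3 genes H3f3a (-1.63) and H3f3b (-2.49) were among those lower.

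In the other 10 lists more genes were higher than lower, beside the background of 15.9% higher. Of 83 cytosolic ribosomal proteins 58 were higher and 12 lower, with a median log2 fold change of 1.20, and with library size alone 42 were higher and 18 lower. Of 14 mitochondrially encoded genes 11 were higher and 0 lower, at a summed level of 655 and 419 CPM against 219 and 237 CPM, whereas lower share cells had 1278 and 993 CPM with the cells of another kind included. A few cells carried these sums. The median share of UMIs on mitochondrially encoded genes was 0.0214 and 0.0175% per higher share cell against 0.0114 and 0.0138% per transition cell, and the means were 0.0588 and 0.0347% against 0.0322 and 0.0361%, so that the mean of mouse 2 was not higher. Of 11 kallikreins 6 were higher and 0 lower, and Klk1b26 was at 426 and 408 CPM against 145 and 113 CPM (2.32). Of 8 testis serine kinase genes 4 were higher and 2 lower, and both Tnp1 (2.28) and Prm3 (1.91) were higher. With library size alone these 5 lists still had more genes higher than lower. The other lists did not keep this. Of 41 genes of ubiquitin, proteasome and cytoplasm removal 17 were higher, among them Ubqlnl (2.29), and 12 lower, but with library size alone 10 were higher and 19 lower. Of 24 fibrous sheath genes 11 were higher, among them Gapdhs, at 2950 and 4110 CPM against 1182 and 1380 CPM (2.09), and 10 lower, and with library size alone 10 were higher and 11 lower. Of 12 outer dense fibre genes 5 were higher and 4 lower, of 18 thioredoxin system genes 7 and 2, and of 9 polyamine genes 3 and 2, among them Oaz3, at 4695 and 6802 CPM against 2077 and 2166 CPM (2.06). With library size alone these 3 lists had 5 and 5, 5 and 5, and 2 and 2.

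**Figure D4:**
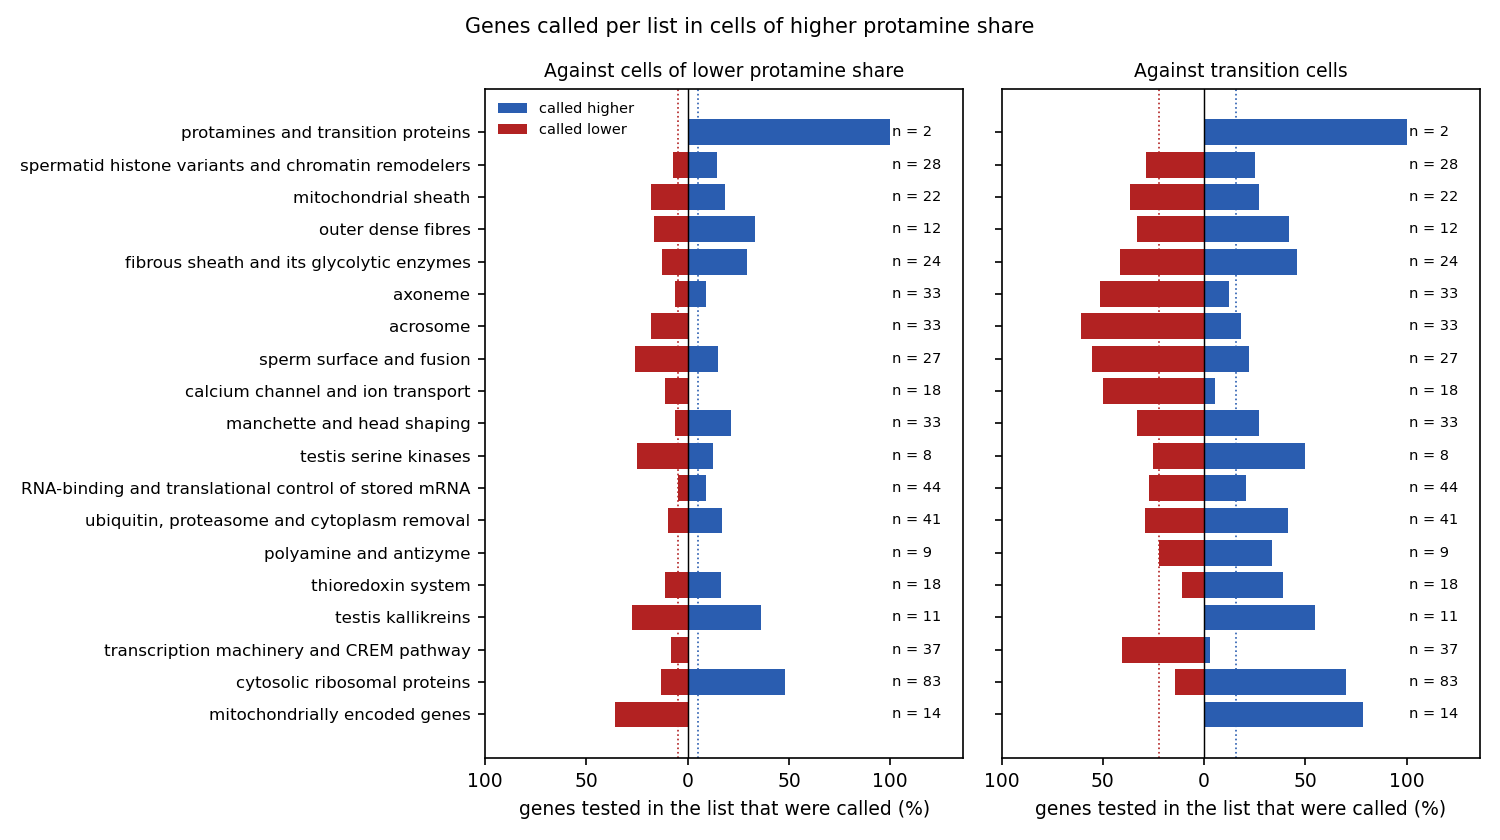
Share of the tested genes of each list (n beside each bar) that passed edgeR's test as higher (blue, to the right) or lower (red, to the left) in higher share cells, against lower share cells and against transition cells, with dotted lines at the share over all genes tested (5.11 and 4.7%, 15.9 and 22.5%). Cytosolic ribosomal proteins extend furthest to the right among lists of over 20 genes in both panels (40 and 58 of 83), and acrosome genes furthest to the left against transition cells (20 of 33).

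Outside the rule, Tnp1 was the most abundant transcript. It had 30672 ± 1763 CPM of all UMIs (SD, n = 2 mice), followed by Smcp with 9084 ± 1960, Hmgb4 with 7627 ± 1171, the fatty acid-binding protein Fabp9 with 6688 ± 531, 1700027A15Rik with 6334 ± 309 and Dbil5 with 6282 ± 835. Gsg1, Meig1, Odf2, Gstm5, Prm3 and the initiation factor Eif1 lay between 5098 and 5637 CPM. Meig1, which spermatids need for assembly of the tail, was at 5401 ± 1696 CPM of all UMIs, against a mean of 6796 CPM in transition cells, a scale on which the protamine transcripts take part of the total. On the TMM scale its log2 fold change against transition cells was 0.47 (edgeR adjusted p = 0.086), so that no difference was called. Its level was 7392 and 5529 CPM at a transition protein ratio of at least 0.4 and 1691 and 959 CPM below 0.1.

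The mice were close in most genes of the higher share cells. Among 2246 genes with at least 100 UMIs in all, 15 exceeded a 2-fold difference toward mouse 2 and 90 toward mouse 1. Ppm1d, a phosphatase of the DNA damage response, was at 41.7 CPM in mouse 1 and 185 CPM in mouse 2, and it differed in the same direction in lower share cells (61.4 and 205 CPM) and transition cells (122 and 426 CPM). Zdbf2, an imprinted gene, was at 57.1 and 188 CPM, with 56.8 and 201 CPM in lower share cells. Genes higher in mouse 1 included Cdyl, Akap3 and Ccdc185, which over all lower share cells were at 1282 and 1061, 1245 and 1096, and 612 and 504 CPM. These values join ranges of the protamine share that held different numbers of cells in each mouse. At a ratio of at least 0.4 the 3 genes were at 1342 and 1536, 1169 and 1489, and 655 and 739 CPM in range 1. In range 2 they were at 1362 and 511, 1370 and 806, and 644 and 210 CPM. With 1 library per mouse, animal and library cannot be told apart.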

How the data were processed

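Testis tissue of 2 mice was profiled with the 10x Chromium 3' v2 kit, 1 library per mouse. The authors demultiplexed with bcl2fastq 2.17.1.14 and aligned and counted with Cell Ranger 2.0.0 against a repeat-masked GRCm38 genome with Ensembl annotation and added repeat sequences, and both mice were combined with downsampling of reads. The deposited matrix gives UMI counts as whole numbers, not normalized, with genes in rows and cells in columns, for 51868 rows, of which 1182 are repeats. Mice were told apart by the number that ends each barcode. Ending 1 was taken as mouse 1, since the order in which the libraries were combined is not given in the sources used here, and values per mouse rest on this. Reads and the authors' cell types were not used here.

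Scores, classes and CPM were computed with Python 3.11.15, numpy 2.4.6, scipy 1.17.1 and pandas 2.3.3, and doublets called with scrublet in scanpy 1.11.5 and kept. UMI counts were summed per mouse and class over 7 classes (14 sums), without the 24 score genes and repeat rows, and tested with the quasi-likelihood test of edgeR 4.0.16 in R 4.3.3 after filterByExpr and TMM scaling, with p-values adjusted by Benjamini and Hochberg's method across the genes of the fit. The classes shared 1 estimate of the spread. On simulated counts for the comparison with lower share cells, with 200 of 13169 genes changed 2-fold, edgeR recovered 168 with 1 false call. For that with transition cells (13103 genes) it recovered 173 with 13. The simulated counts were independent and had the same spread in all genes. Only well-counted genes were changed, as many up as down, and all others were equal between the classes compared. The false calls therefore do not measure the error rate in the real data. DESeq2 1.42.0 was an alternative. Figures were drawn with matplotlib 3.10.9. Gene positions matched GRCm38 annotation for 50376 of 50686 genes. Intervals of shares are exact binomial ones, and the limit for 0 UMIs is 3 counts.

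Named genes are the 12 largest rises and falls against lower share cells and the 8 against transition cells, with an adjusted p under 0.05, the same direction in both mice and at least 200 UMIs over both classes. Also named are the 15 genes of highest CPM, list members, score genes and markers. The cells, lists and rules were chosen with earlier results of these data known. The bands of the transition protein ratio, the 4 ranges of the protamine share, the genes named for them or for a difference between the mice, and the cells of another kind (Prm1 and Prm2 under 5000 CPM, or at least 10 haemoglobin UMIs) were chosen after values had been seen. Sums of the same mouse come from the same animal. The correlation of their deviations from the class means over 13115 genes was 0.0833 between higher and lower share cells and 0.0476 between higher share and transition cells, and ranged from -0.00939 to 0.227 over 21 pairs of classes.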

Additional observations from a re-analysis of the deposited data

How the results depend on the processing

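The counts of calls moved with the setting, and the causes were not tested. In the comparison with lower share cells 1286 genes were called, 670 higher and 616 lower. DESeq2 called 1045 higher, and library size alone gave 103 higher and 1204 lower. Choosing cells on a random part of the UMIs and testing on the remainder gave 827 calls among 11163 genes tested, 409 of them higher. Fitting only the classes compared, in which 6272 genes were tested, gave 396 calls, 68 higher and 328 lower. With the mouse as replicate block, 1765 genes were called, 1011 of them higher. Without the 6 cells of another kind 361 were higher. Leaving out a mouse gave 587 to 738 calls, 99 to 414 higher and 324 to 488 lower, with the lone sum of each class assumed to vary like the others. The setting without cells above 50000 UMIs, that without doublets and that without a filter on low counts kept the counts within 1.5 times. In the comparison with transition cells, library size alone gave 1033 higher and 4580 lower, and leaving out a mouse gave 1232 to 1411 higher. The block changed the call of none of the 40 named results. Lcn2, Fabp3, Cyp17a1 and Gstm1 changed sign without the cells of another kind (0.33, 0.50, 0.63 and 0.85 on the log2 scale), and also where cells of low transition protein ratio were left out with them (0.44, 0.47, 0.28 and 0.82). Those 6 cells hold most of the UMIs of Malat1 in their class.

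The number of higher share cells was 245 to 251 under other standardisation or thinning, with 139 and 109 cells per mouse for a median within each mouse. Some 22 cells carry the values of the lowest band, 7 of them in mouse 1, so low counts there limit the precision.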
